A study of Solanum tuberosum with 9 samples.

Results

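The gene models described here had more transcript in potato tubers stored for 40 days than in control tubers at day 0. The latter are called unstored below, whatever their earlier keeping. This held whether or not the stored tubers were fumigated with rosemary essential oil. The models were not raised by 1.5 times or more with the oil over stored control tubers. They were picked from the deposited counts, scaled to each library's total (CPM, counts per 1000000). Only models with a reference identifier were taken, 32917 of the 34239 in the table. The rule had 3 further conditions: the lowest of the 6 day 40 libraries was at least 1.5 times the highest of the 3 day 0 libraries, the mean over day 40 was at least 5 CPM, and the mean with the oil was under 1.5 times the mean of control tubers at day 40. In all, 53 of the 34239 gene models met the rule, and in 2 of these a stored library had 0 counts, as did all unstored ones. These 53 are called members below. The rule used every library, so the levels and folds that follow describe the choice, and no test on them is offered as support.

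Potato tubers stay dormant for a time after harvest, while their buds do not grow and the storage tissue keeps up respiration and starch turnover. Dormancy is known to be held by abscisic acid and ethylene, and its release goes with gibberellin and cytokinin activity and with sugar supply to the bud. Vapours of some plant oils, whose main constituents are volatile terpenes, delay or injure the growing sprout, and rosemary essential oil (REO) was tested here for that use.

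The libraries were made from tubers of Solanum tuberosum, cultivar Keshan, bought as mature tubers. There were 3 groups of 3 libraries. The first came from tubers fumigated with REO and sampled after 40 days, the second from control tubers of the same age in store, and the third from control tubers at the start (day 0). Stored tubers were kept sealed, at a temperature and humidity held alike for both groups. Between day 0 and day 40, time in store, sealed keeping and sampling date all differed, and they cannot be told apart. The sources used here do not give the dose of the oil, the number of tubers behind a library or the part of the tuber sampled. The spread between libraries is therefore the only error available. Bulk RNA was measured, so more cells of a type and more RNA per cell cannot be told apart. The identifiers are not paired with gene names in the files, and 0 of them matched the reference gene table, which belongs to assembly SolTub_3.0. Hence no function, tissue marker or sequence is given for any member, and most are described by the chromosome number in their identifier.

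Library totals ranged from 29330673 to 36901701 counts, and a floor of 3 counts, which covers counting error only, stood at 0.0813 to 0.102 CPM. Control day 40 replicate 2 and REO replicate 3 deviated from their group means alike. With group means subtracted, their log2 levels correlated at 0.73 across 13576 models, which are not independent of each other. This was the highest value among pairs of an REO and a control library of day 40, and the lowest was -0.64. Subtracting the mean of 3 libraries ties the deviations within a group, so values of both signs can arise from it. No library is called an outlier on this ground. Among the day 0 libraries, replicate 3 ran lowest. Its median log2 deviation from its group was -0.12 over models of at least 5 CPM, against 0.06 and 0.08 in replicates 1 and 2. Values are shown replicate by replicate below, and counts of members are also given without each of these libraries.

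Few models met so strict a step, and their number depends on the limits chosen. Of the 13576 reference models with at least 5 CPM at day 40, 74 held the 1.5-fold step in all libraries, or 0.545%. The cap on REO removed 21 of these and left the 53, which are 0.390% of the models at that level. They summed to 6255 ± 752 CPM in REO tubers at day 40 and 6142 ± 1015 CPM in control tubers at day 40, against 2467 ± 25.05 CPM in control tubers at day 0 (SD, n = 3 each). These sums are 0.625%, 0.614% and 0.247% of the counts of an average library in the 3 groups.

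**Figure D1:**
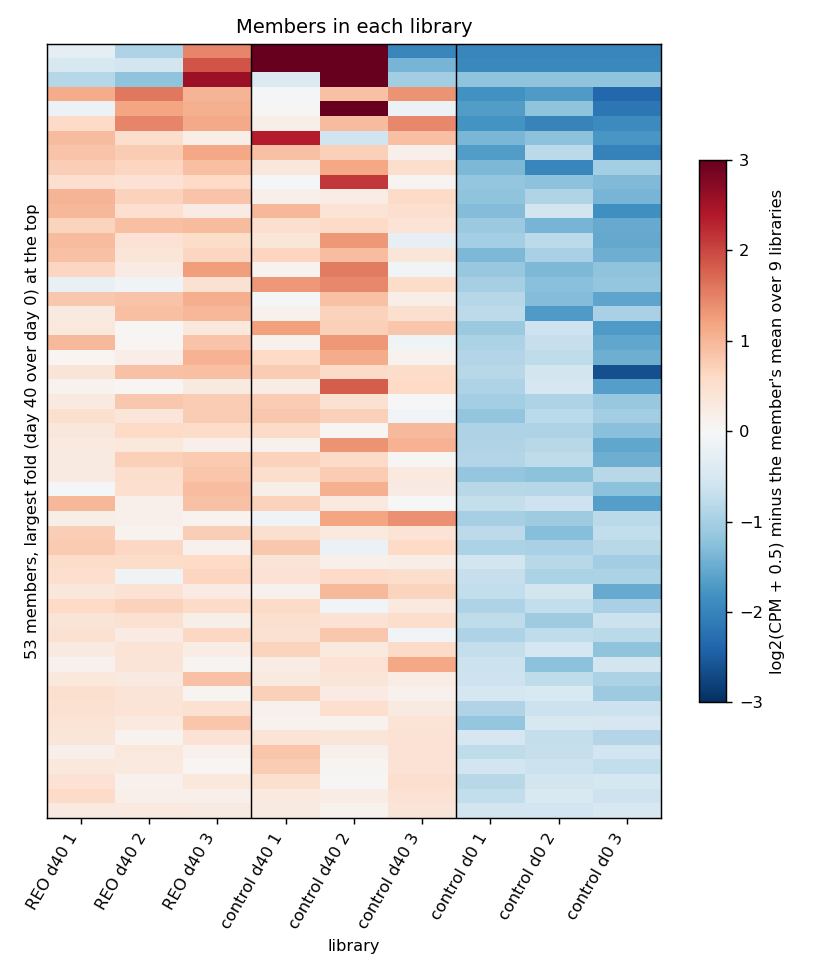
Each row is 1 of the 53 members, ordered by fold with the largest at the top, and each column is a library (REO day 40, control day 40, control day 0). Colour gives log2(CPM + 0.5) minus the member's mean over the 9 libraries, cut at 3 in either direction. The 6 day 40 columns are mostly red and the 3 day 0 columns blue, and the 3 rows at the top are high in only some of the stored libraries.

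Most members were higher by a modest factor. Among the 50 with any count at day 0, the day 40 mean over the day 0 mean ran from 1.74 to 11.8, with a median of 3.29 and quartiles of 2.49 and 3.96. Of these, 2 were under 2-fold, 36 between 2- and 4-fold, 8 between 4- and 8-fold and 4 at 8-fold or more. The median member stood at 11.1, 10.8 and 13.3 CPM in REO replicates 1, 2 and 3, at 12.6, 16.5 and 12.4 CPM in control replicates 1, 2 and 3 of day 40, and at 3.70, 4.13 and 3.16 CPM in the day 0 libraries. These medians do not overlap between stored and unstored tubers, which the rule fixed in advance. Members were of low to middling abundance: 21 were under 10 CPM at day 40, 27 between 10 and 100 CPM and 5 at 100 CPM or more. Their median of 11.4 CPM lay below the 23.4 CPM of all models with at least 5 CPM.

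A single transcript made up most of the summed level. Soltu.DM.11G008460 on chromosome 11, singled out after its values were seen, was the sixth most abundant of the 13576 models at day 40 by CPM. It also led the members on the length-scaled FPKM values. It had 4507, 4018 and 2846 CPM in REO replicates 1, 2 and 3, and 4532, 2310 and 3916 CPM in control replicates 1, 2 and 3 at day 40, against 1342, 1329 and 1463 CPM at day 0. REO and control tubers overlapped over nearly their whole range, and both lay clear of day 0, as the rule requires. Its lowest values at day 40 were in REO replicate 3 and control replicate 2, the 2 libraries whose deviations correlated at 0.73. It contributed 60.6% of the members' sum in REO tubers, 58.4% in control tubers at day 40 and 55.9% at day 0. Without it, the other 52 members summed to 2465 ± 103 CPM in REO tubers and 2556 ± 133 CPM in control tubers at day 40, against 1089 ± 49.5 CPM at day 0 (SD, n = 3 each). The wide spread of the total at day 40 was thus that of this transcript.

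**Figure D2:**
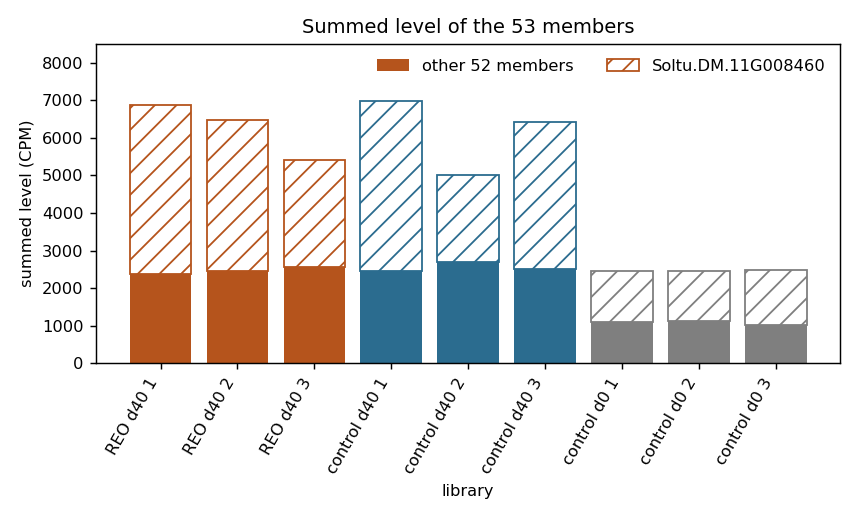
Bars give the summed level of the members in each library in CPM, split into Soltu.DM.11G008460 (hatched) and the other 52 members (filled). The filled part lies between 2367 and 2704 CPM in the 6 day 40 libraries and between 1033 and 1127 CPM in the 3 day 0 libraries, and the hatched part varies more.

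The next most abundant member, on chromosome 7, showed the smallest fold of the members. It had 1027, 1049 and 1034 CPM in the REO libraries and 1033, 928 and 1113 CPM in the control libraries of day 40, against 586, 577 and 610 CPM at day 0. The fold was 1.74, and its ratio of REO to control at day 40 was 1.01. A member on chromosome 12 had 192.5, 268 and 274 CPM with REO and 247, 218 and 214 CPM in control tubers at day 40, against 82.8, 99.1 and 23.0 CPM at day 0. Here day 0 replicate 3 was far below the other day 0 libraries. A member on chromosome 4 had 145, 139.8 and 145 CPM with REO and 115, 149 and 126.5 CPM in control tubers at day 40, against 56.2, 67.1 and 66.9 CPM at day 0, and its stored groups overlapped. The fifth member above 100 CPM, on chromosome 12, is described below with its neighbour.

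The 2 members with the largest fitted rise past the threshold were the same in all storage comparisons. In one edgeR quasi-likelihood fit of all 9 libraries with TMM scaling, each group was compared with day 0, and so was the mean of both day 40 groups. Soltu.DM.09G027170 on chromosome 9 had 11.1, 15.5 and 10.4 CPM in REO replicates 1, 2 and 3, and 4.69, 9.40 and 13.2 CPM in control replicates 1, 2 and 3 at day 40. At day 0 it had 1.02, 1.16 and 0.543 CPM. The lowest stored library was 4.05 times the highest unstored one. Its log2 fold change against day 0 was 3.72 ± 0.42 (SE) with REO and 3.22 ± 0.42 without.

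Soltu.DM.06G025720 on chromosome 6 had 10.5, 19.8 and 15.8 CPM in REO tubers and 7.80, 13.7 and 19.75 CPM in control tubers at day 40, against 1.63, 1.33 and 1.47 CPM at day 0. Its step of 4.77 between the lowest stored and the highest unstored library was the widest of the members with counts at day 0. Its log2 fold change against day 0 was 3.31 ± 0.38 (SE) with REO and 3.10 ± 0.38 without. For control storage, the call of each of these models was lost when day 0 replicate 1, 2 or 3 or REO replicate 2 was left out, with log2 fold changes of 2.96 to 3.37 in those fits. In both models control replicate 1 was the lowest of the stored libraries, and the REO and control values overlapped. The other 2 members at 8-fold or more, on chromosomes 6 and 9, each had 1 library far above the rest. The one on chromosome 6 had 5.56, 15.01 and 13.6 CPM with REO, and 6.50, 57.9 and 5.47 CPM in control replicates 1, 2 and 3 at day 40, against 1.63, 2.46 and 1.02 CPM at day 0. The one on chromosome 9 had 6.48, 4.72 and 3.62 CPM with REO, and 17.9, 1.86 and 6.28 CPM in control tubers at day 40, against 0.895, 1.04 and 0.575 CPM at day 0. Control replicate 2 was the highest for the first and the lowest stored library for the second.

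The rule also took in 3 models with 0 counts in every day 0 library, and they behaved otherwise. Soltu.DM.08G017280 on chromosome 8 had 1.09, 0.534 and 4.88 CPM with REO, and 31.8, 23.1 and 0 CPM in control replicates 1, 2 and 3 at day 40. Soltu.DM.12G006650 on chromosome 12 had 0.136, 0 and 6.37 CPM with REO, and 0.352, 28.1 and 0.0640 CPM in control tubers at day 40. Soltu.DM.09G030430 on chromosome 9, named after its values were seen because it completes this set, had 0.852, 0.787 and 6.46 CPM with REO, and 15.9, 17.2 and 0.224 CPM in control tubers at day 40. In all 3, REO replicate 3 was the highest of the REO libraries and control replicate 3 the lowest of the control libraries. The first 2 have a day 40 library at 0 counts and pass the rule only because 0 is not below 1.5 times 0. Requiring a count in every day 40 library, a condition added after the data were seen, left 51 members. Against the floor of 3 counts in each day 0 library, their means were at least 23.7-, 23.6- and 29.4-fold higher with REO and at least 199-, 104- and 121-fold higher in control tubers at day 40. Those means rest mainly on 1 REO library and on 1 or 2 control libraries.

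**Figure D3:**
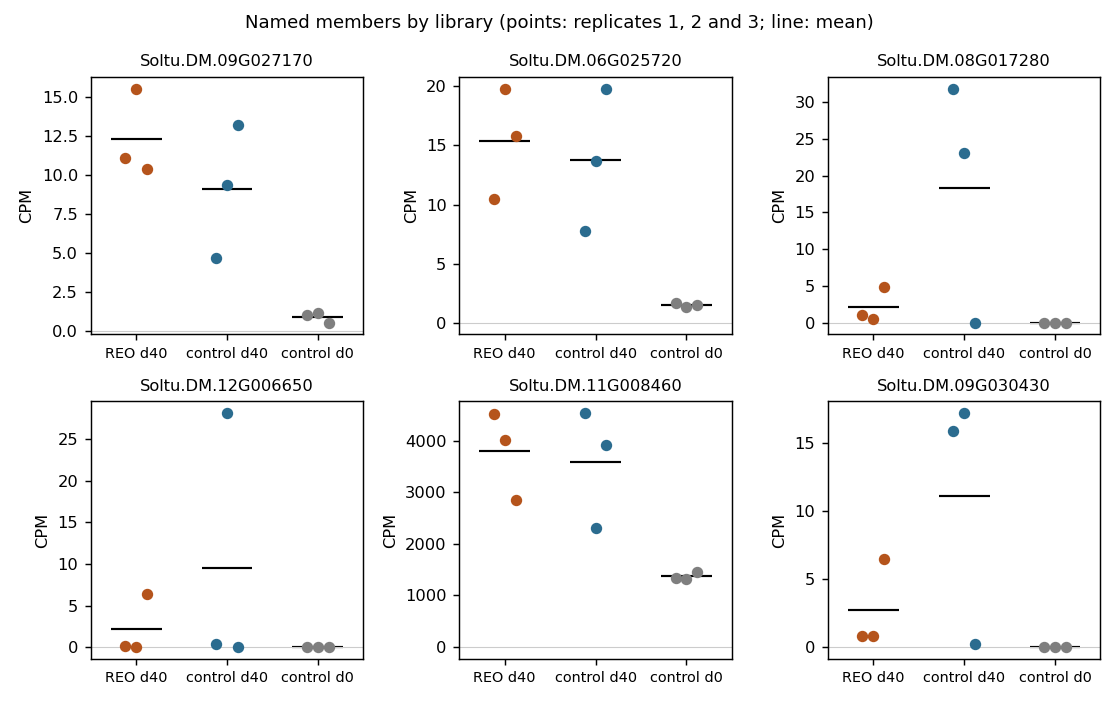
Each panel shows a named member, with the CPM of replicates 1, 2 and 3 as points from left to right and the group mean as a line, for REO day 40, control day 40 and control day 0. In Soltu.DM.09G027170, Soltu.DM.06G025720 and Soltu.DM.11G008460 all stored libraries lie above all unstored ones, as the rule requires. In the other 3 panels single stored libraries lie at or near 0.

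The edgeR fit called many members in the contrasts that had chosen them, at a Benjamini-Hochberg adjusted p under 0.05 over 22638 models. All 53 were tested. For the mean of both day 40 groups against day 0, 46 members were called higher, where 1.39% of all models were. For REO day 40 against day 0, 35 were called, also beside 1.39% of all models, and for control day 40 against day 0, 25 were called beside 0.274%. Both storage comparisons use the same day 0 libraries, and the rule used these contrasts, so nothing is read from the counts. The members' median log2 fold change was 1.64 for the mean of both groups, 1.62 with REO and 1.58 without, beside medians over all models of 0.02, 0.00 and 0.04. Leaving out day 0 replicates 1, 2 or 3 changed the 46 to 14, 27 or 22, and leaving out REO replicates 1 or 2 changed it to 26 or 24. Over all models, the calls of higher level changed alongside, with 315 in the full fit and 49, 105, 81, 90 and 72 in the same 5 fits. In the absence of control day 40 replicates 1, 2 or 3 the 46 became 34, 50 or 38, beside 136, 989 and 256 of all models. In that of REO replicate 3 it became 32, beside 126. The 35 changed to 11, 20 or 20 in the absence of day 0 replicates 1, 2 or 3, and to 16, 10 or 13 in the absence of REO replicates 1, 2 or 3. All models called higher there numbered 314 in the full fit and 92, 155, 178, 128, 73 and 119 in those fits. In the absence of control day 40 replicates 1, 2 or 3 the 35 became 30, 48 or 33, beside 271, 701 and 337 of all models. The 25 changed to 1, 4 or 0 in the absence of day 0 replicates 1, 2 or 3, to 5, 40 or 7 in that of control day 40 replicates 1, 2 or 3, and to 7, 0 or 8 in that of REO replicates 1, 2 or 3. All models called higher there numbered 62 in the full fit and 1, 11, 0, 6, 397, 14, 12, 0 and 15 in those fits.

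In a further description, each library was left out in turn, models were chosen by the rule from the other 8, and the library left out was then read. Its own values took no part in that choice, but the libraries it was read against did. For REO replicates 1, 2 and 3, the step of at least 1.5 times the highest day 0 library held in 51 of 56, 53 of 59 and 53 of 57 chosen models. Over all models of at least 5 CPM it held in 4.62%, 5.0% and 5.48%. For control day 40 replicates 1, 2 and 3 it held in 54 of 62, 48 of 78 and 51 of 94 chosen models, beside 6.47%, 8.28% and 4.59% of all. The share that held was smallest for control replicates 2 and 3. Models picked for low day 0 values keep them in this reading, so the share over all models is no counterpart, and the gap between the shares is not read as support.

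With day 0 replicates left out, the reading was made against the same day 40 libraries. The step held in 53 of 74, 53 of 115 and 53 of 78 chosen models for replicates 1, 2 and 3, beside 1.64%, 1.27% and 13.0% of all models at that level. These 53 are the members themselves, since passing here completes the rule. The library left out lay below every stored library in 72, 98 and 71 of the chosen models. Their choice had already set every stored library at least 1.5 times above the other day 0 libraries. No share over all models was taken beside these counts, so nothing is read from them. Day 0 replicate 2 most often set the limit of the step. It was the highest of the day 0 libraries in 26 of the 50 members with counts there, against 14 for replicate 1 and 10 for replicate 3. It also had the highest median log2 deviation of the day 0 libraries over all models of at least 5 CPM. The matching share over all models was not taken, so the count is not read as a trait of the members.

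**Figure D4:**
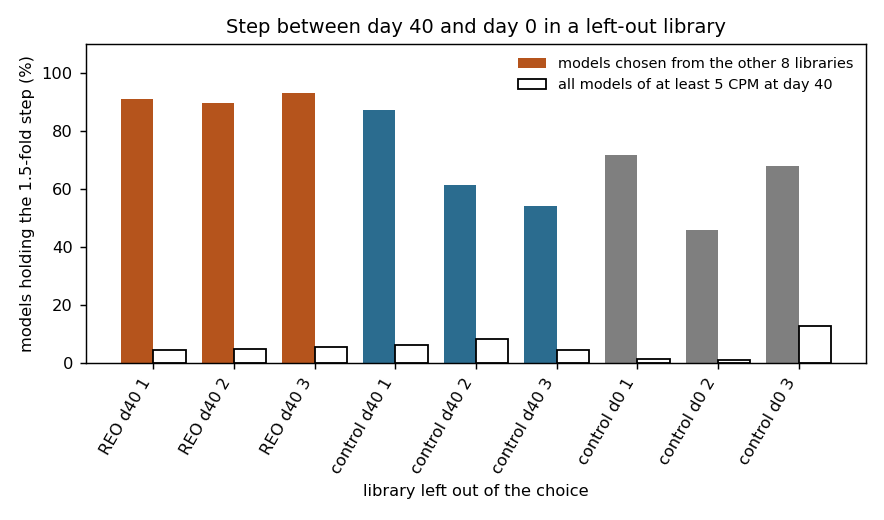
For each library left out of the choice, filled bars give the percentage of models chosen from the other 8 libraries that held the 1.5-fold step in it, and open bars give the percentage over all models of at least 5 CPM at day 40. Filled bars run from 46.1% for control day 0 replicate 2 to 93.0% for REO replicate 3, and open bars from 1.27% to 13.0%.

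REO and control tubers at day 40 are compared next for the members, as a description, because the cap on REO had removed the 21 storage-rising models with a ratio of 1.5 or more. The ratio of the REO mean to the control mean had a median of 0.989 and quartiles of 0.817 and 1.12, and 31 of the 53 lay between 0.8 and 1.2. The rule sets no lower limit, so both the position of the median and the longer tail below depend on it, and 0 calls of higher members are not read as a result. By library totals 27 members were lower and 26 higher with REO, while in the fit with TMM scaling 21 were lower and 32 higher. The members' median log2 fold change was 0.05 beside -0.05 over all models with TMM scaling, and -0.02 beside -0.11 by library totals. None (0) of the members was called in either direction by edgeR, where 0.424% of all models were called higher and 0.0353% lower with REO. At an unadjusted p under 0.05 in the same fit, 3 members were higher and 3 lower (5.66% each), beside 4.29% and 3.51% of all models. DESeq2 called 1 member, which was lower, beside 0.588% of all models. A p that misses the threshold does not show that the levels were equal.

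**Figure D5:**
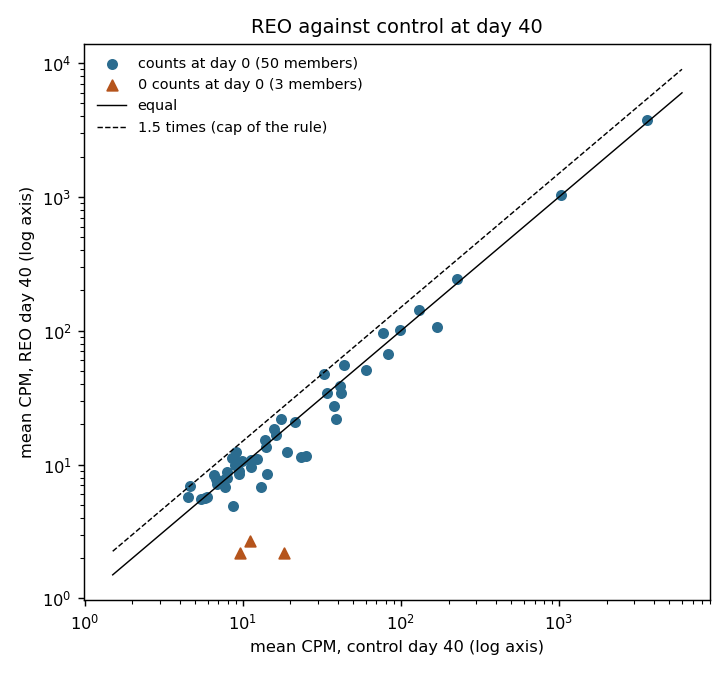
Each point is a member, with its mean CPM in control tubers at day 40 on the horizontal axis and in REO tubers at day 40 on the vertical axis, both on log scales. The 50 members with day 0 counts lie under the dashed line at 1.5 times. Most of them are near the line of equality, and some lie well below it, down to a ratio of 0.464. The 3 members with 0 counts at day 0 lie further below both lines, with ratios of 0.119 to 0.243.

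The members in which REO and control tubers did not overlap at day 40 numbered 5. In 2 of them (3.77%) all REO libraries lay below all control libraries of day 40, beside 9.59% of the models tested, and in 3 (5.66%) all lay above, beside 5.76%. These counts are too small to set the members apart from other models, and the cap limits the second. One of the 2 lower members, on chromosome 8, had 9.44, 10.2 and 15.3 CPM with REO and 27.9, 31.0 and 16.4 CPM in control tubers at day 40, against 5.25, 4.34 and 4.63 CPM at day 0. It was therefore above day 0 in both groups and lower with the oil, with a log2 difference between REO and control of -1.04 ± 0.25 (SE). This is the member that DESeq2 called (adjusted p = 0.0151), and edgeR did not call it. The other, on chromosome 3, had 9.14, 7.36 and 9.00 CPM with REO and 17.5, 12.2 and 13.2 CPM in control tubers at day 40.

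The 3 members above control were on chromosomes 1, 4 and 11, and their ratios were close to the cap or moderate. The one on chromosome 4 had 49.0, 57.7 and 59.5 CPM with REO and 43.5, 45.8 and 40.8 CPM in control tubers at day 40, against 13.8, 11.2 and 10.3 CPM at day 0. The one on chromosome 1 had 7.77, 6.16 and 6.89 CPM with REO and 4.01, 4.31 and 5.57 CPM in control tubers at day 40, a ratio of 1.499 just under the cap. The 2 members named by the rule for the lowest fitted log2 difference were Soltu.DM.08G017280, at -3.02 ± 1.62 (SE), and Soltu.DM.12G006650, at -2.04 ± 2.19 (SE). Both reached the limit of 5 CPM at day 40 only through control tubers, with means of 2.17 CPM with REO in both, and 18.3 and 9.52 CPM in control tubers, so the rule favours a difference in this direction. Neither passed the test, and their REO and control libraries overlapped. Without control day 40 replicate 2, the value of Soltu.DM.12G006650 turned to 3.34.

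Among the stored libraries, control replicate 2 most often stood above the others. It was at least 2 times the median of the other 5 in 11 members, against 5 members for REO replicate 3, 4 for control replicate 1, and 0 or 1 for each of the other 3 libraries. The matching shares over all models were not taken, so these counts are not read as a trait of the members. A member on chromosome 5, for example, had 12.4, 11.9 and 13.3 CPM with REO and 8.40, 39.2 and 9.09 CPM in control replicates 1, 2 and 3. A member on chromosome 2 had 6.55, 6.35 and 7.33 CPM with REO and 7.15, 22.5 and 9.38 CPM in control tubers. In both, the 5 other stored libraries lay within a narrow range. Control replicate 2 was the highest stored library in 32.1% of members and in 36.1% of all models of at least 5 CPM. REO replicate 3 was the highest in 22.6% of members and in 11.03% of all models. The part of these libraries in the members' levels was not tested beyond leaving them out.

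Chosen without control day 40 replicate 2, the set numbered 78 and held 46 of the 53 members, and without REO replicate 3 it numbered 57 and held 51. Without control day 40 replicate 3 it numbered 94, and without day 0 replicate 2 it numbered 115, of which 51 and all 53 were members. Without control day 40 replicate 2 and REO replicate 3 together, which was tried once the values were known, 145 models were chosen and 47 of them were members. On TMM-scaled CPM the rule chose 40 models, 39 of them members. For control storage, the median log2 fold change over all models was 0.15 by library totals and 0.04 with TMM scaling, and over the members it was 1.71 and 1.58.

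The replicates of a group spread more in the members than over all models of at least 5 CPM at day 40, whose median level was higher. The median coefficient of variation was 17.6% in members and 11.2% in all 13576 models with REO, and 26.5% against 17.1% in control tubers at day 40. At day 0 it was 20.8% over 50 members and 17.4% over all models. The part of level in this spread was not tested.

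The members' transcripts had a median length scale of 2152 bases, with quartiles of 1763 and 2548 bases, against 1880 bases and quartiles of 1282 and 2608 bases for all models of at least 5 CPM. This scale came from the ratio of count to FPKM, since no gene lengths were used. It rests on reading the second deposited table as FPKM. Taken from 1 group at a time, the members' median was 2151 bases with REO, 2132 in control tubers at day 40 and 2184 at day 0. Members lay on all 12 numbered chromosomes, with 8 on chromosome 12, 6 each on chromosomes 2 and 9, 5 on chromosome 10 and 2 to 4 on each of the others. On chromosome 12 they were 0.887% of its 902 models of at least 5 CPM, where members made up 0.390% of all. At these small numbers the shares are given as a description.

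No 2 members (0 pairs) carried consecutive identifier numbers, which run in steps of 10, and the closest pair differed by 30, on chromosome 12. The more abundant of that pair had 109, 111 and 99.6 CPM with REO and 97.7, 228 and 185 CPM in control replicates 1, 2 and 3 at day 40, against 47.0, 49.5 and 29.7 CPM at day 0. The other had 33.99, 36.7 and 32.2 CPM with REO and 29.6, 53.6 and 42.7 CPM in control tubers at day 40, against 15.8, 18.2 and 9.07 CPM at day 0. Both were highest in control replicates 2 and 3 and lowest at day 0 in replicate 3. The sources used here do not say how reads of near-identical models were counted, so if these were copies of each other, shared reads and a shared pattern could not be told apart.

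The 21 models that the cap removed had, by construction, higher ratios of REO to control than any member. They summed to 836 ± 69.4 CPM with REO and 327 ± 27.9 CPM in control tubers at day 40, against 127 ± 3.997 CPM at day 0 (SD, n = 3 each), and their median ratio of REO to control was 2.07. Their median day 40 level of 11.7 CPM was near the members' 11.4 CPM. Day 0 counts of 0 were set to the floor in the members only. The median fold over day 0 was then 5.85 in the 21 models and 3.30 in the members. No test was made of that difference, because the rule fixes part of it.

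Many members sat close to the rule's limits. Of the 50 with day 0 counts, 15 had a lowest stored library under 1.6 times the highest unstored one, 13 had at least 2 times and 3 at least 3 times. The member nearest to the limit, on chromosome 12, had a step of 1.504, with 11.1 CPM in its lowest stored and 7.38 CPM in its highest unstored library. The nearest model outside, on chromosome 4, had a step of 1.496, with 30.1 and 20.1 CPM. On the level limit, the nearest member averaged 5.09 CPM at day 40 and the nearest model outside 4.87 CPM. On the cap, the ratios of REO to control were 1.499 inside and 1.54 outside.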

How the data were processed

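The authors deposited whole-number counts of reads per gene model, and a second table of values that was read as FPKM. Count over value factored into 1 term per gene and 1 per library, to within 2%, in 88.99% of 10904 models. These models had at least 200 counts in every library. Any value scaled by gene length and by a library constant would factor alike, so FPKM is an assumption here. Per the submitters' processing notes, HISAT2 2.1.0 and DESeq2 were among the tools. Not given in the sources used here: the counter, the genome build and the annotation. No strand-marking step is described per the labels' protocols, so antisense reads may be included. Of 34239 models, 32917 carry a reference identifier and 1322 one added by the submitters.

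The rule was applied to CPM by library total in Python 3.11.15. Counts were tested with edgeR 4.0.16 (filterByExpr, TMM, quasi-likelihood, 1 coefficient per group, two-sided, R 4.3.3) and Benjamini-Hochberg adjustment over 22638 models. SEs come from the F statistic. The length scale is the median over libraries with at least 20 counts. Fits and rule were tested on simulated data. The members and the tests were chosen with earlier results of these data known. Named models are, per storage comparison, the 2 called members with the largest fold change, and the 2 with the lowest for REO against control. Alternatives were DESeq2 1.42.0, limma 3.58.1 on log2(FPKM + 1) and log2(FPKM + 0.1), RLE and library-size scaling, no low-count filter, a replicate block, other limits of the rule and leaving out each library.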

Additional observations from a re-analysis of the deposited data

Results flagged for a closer look

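The rule was limited to reference identifiers. Outside it, 3 models added by the submitters met the same value limits, in data that the comparisons above do not use. Together they averaged 55.0 CPM in REO tubers and 65.1 CPM in control tubers at day 40, against 16.7 CPM in control tubers at day 0. The highest of them had 21.2, 26.5 and 20.1 CPM with REO and 34.6, 22.2 and 36.8 CPM in control tubers at day 40, against 5.43, 9.66 and 3.77 CPM at day 0. Groups of 3 libraries are too small for the check for single outlying samples.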

How the results depend on the processing

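The number of members was 179 with a smaller step and 16 with a step of 2. With a level limit of 1 or 10 CPM it was 136 or 32, and with none 2125. It was 145 without control day 40 replicate 2 and REO replicate 3, and 56 to 115 when 1 library was left out. FPKM (62), TMM (40), no cap (74) and a tighter cap (43) kept it within 1.5 times. Members called for the mean of both day 40 groups, control and REO against day 0, and REO against control numbered 14 to 50, 0 to 40, 10 to 48 and 0 when 1 library was left out. DESeq2 called 51 for control storage and 1 for REO against control. All models called in the 4 comparisons numbered 814, 191, 590 and 104. Leaving out 1 library gave 187 to 2568, 0 to 985, 93 to 1430 and 23 to 175, DESeq2 gave 2512, 1664, 2055 and 532, and limma on log2(FPKM + 1) gave 288 for control storage. The replicate block gave 327, 8, 300 and 44 models, and 30, 1 and 21 members in the 3 storage comparisons. Same-numbered libraries deviated together at correlations of -0.64 to 0.56, so the numbers were not taken to pair them. The log2 value of Soltu.DM.12G006650 for REO against control ran from -6.99 to 3.34 when 1 library was left out, turning in the absence of control day 40 replicate 2. The storage calls of Soltu.DM.09G027170 and Soltu.DM.06G025720 without REO were each lost in 5 of 14 alternatives, the replicate block and 4 libraries left out. The causes were not tested. With 3 libraries a group, member counts past the threshold in the storage comparisons changed with the library left out. The median log2 fold change of the members for control storage stayed between 1.45 and 1.66 when 1 library was left out.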

Other observations

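The limits were also turned round, with the lowest day 0 library at least 1.5 times the highest of the 6 stored libraries. With a day 0 mean of at least 5 CPM, 140 models met them. Before the cap on REO, 74 models were higher in storage, but there the level limit was set on the day 40 mean. The counts thus come from unlike pools, and no balance of falls and rises is read from them. The 140 models summed to 13030 ± 3537 CPM in REO tubers and 12130 ± 1177 CPM in control tubers at day 40, against 50830 ± 6925 CPM at day 0 (SD, n = 3 each).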
